A study of Saccharomyces cerevisiae with 14 samples.

Results

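The septins and the protein kinases that act on them at the bud neck were examined as 9 mRNAs of *Saccharomyces cerevisiae*, chosen by gene identifier. The 5 septin mRNAs were CDC3 (YLR314C), CDC10 (YCR002C), CDC11 (YJR076C), CDC12 (YHR107C) and SHS1 (YDL225W). The 4 kinase mRNAs were GIN4 (YDR507C), KCC4 (YCL024W), HSL1 (YKL101W) and ELM1 (YKL048C). All 9 were present in both count tables, among 4792 mRNAs and 5945 RNAs, and all 9 passed the filter on low counts in every comparison.

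Septins are GTP-binding proteins that assemble into rods and filaments. In budding yeast they form a ring and then a collar at the neck between mother and bud, which serves as a scaffold for signalling and cytokinesis proteins and as a barrier to diffusion along the membrane. The kinases GIN4, KCC4 and HSL1 are related to each other, bind the septin collar and phosphorylate or organize it, and ELM1 acts upstream in the same system. The proteins whose bound RNA was measured belong to the mRNA decay machinery. Ccr4 is the main cytoplasmic deadenylase, which shortens poly(A) tails, Dhh1 is a DEAD-box helicase of translational repression and decapping, and Puf5, also called Mpt5, is a PUF-family protein that binds short motifs mostly in 3′ untranslated regions and recruits the Ccr4-Not complex.

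RNA was cross-linked to protein with formaldehyde in BY4741 cells in rich medium at 30C, recovered with an antibody to the myc epitope and sequenced (RIP-seq). The 3 tagged groups were the Ccr4 IP, Dhh1 IP and Puf5 IP, from cells with a myc-tagged version of that protein, and the mock group was the same immunoprecipitation from untagged cells (UT IP), with 3 biological replicates in each. The UT input, RNA of untagged cells without immunoprecipitation, had 2 replicates. The number of clones behind each tagged strain is not given in the sources used here. Libraries held 20376517 to 23943342 counts, of which 95.1% to 97.4% were rRNA, and the 9 mRNAs together had 507 to 1284 reads per library. The MATa-specific genes STE2, BAR1, MFA1 and MFA2 each had at least 47 reads in every library, and URA3, LEU2 and MET17, which are deleted in BY4741, had at most 18, 2 and 3 reads. Because these are bulk extracts, the number of cells that carry an mRNA and the amount per cell cannot be told apart.

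The 9 mRNAs differed widely in their enrichment over the UT IP, and ELM1 had the highest enrichment with all 3 factors. Enrichment was computed as log2 of the tagged IP over the UT IP after scaling each library by its total, and an mRNA was called enriched with an adjusted p (FDR) under 1% and a log2 value over 1, that is over 2-fold. In the Ccr4 IP 5 of 9 members were enriched (SHS1, GIN4, KCC4, HSL1 and ELM1), against 59.0% of all mRNAs tested. In the Dhh1 IP 3 of 9 were enriched (GIN4, KCC4 and ELM1), against 38.8% of all mRNAs, and without UT IP replicate 1 CDC11 and HSL1 were added. In the Puf5 IP 2 of 9 were enriched (GIN4 and ELM1), against 18.2% of all mRNAs. These shares lay near those of mRNAs in general. At the FDR alone, 7 of 9 members were higher with Ccr4, 7 with Dhh1 and 3 with Puf5, against 70.0%, 55.2% and 24.5% of all mRNAs, and none was lower, against 0.280%, 0.0431% and 0.129%. Counted by library, all 9 members in all Ccr4 and Dhh1 libraries lay above the highest UT IP library, as did 79.3% and 76.6% of all mRNAs. With Puf5 this held for 6 of 9 members and 50.6% of all mRNAs.

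**Figure D1:**
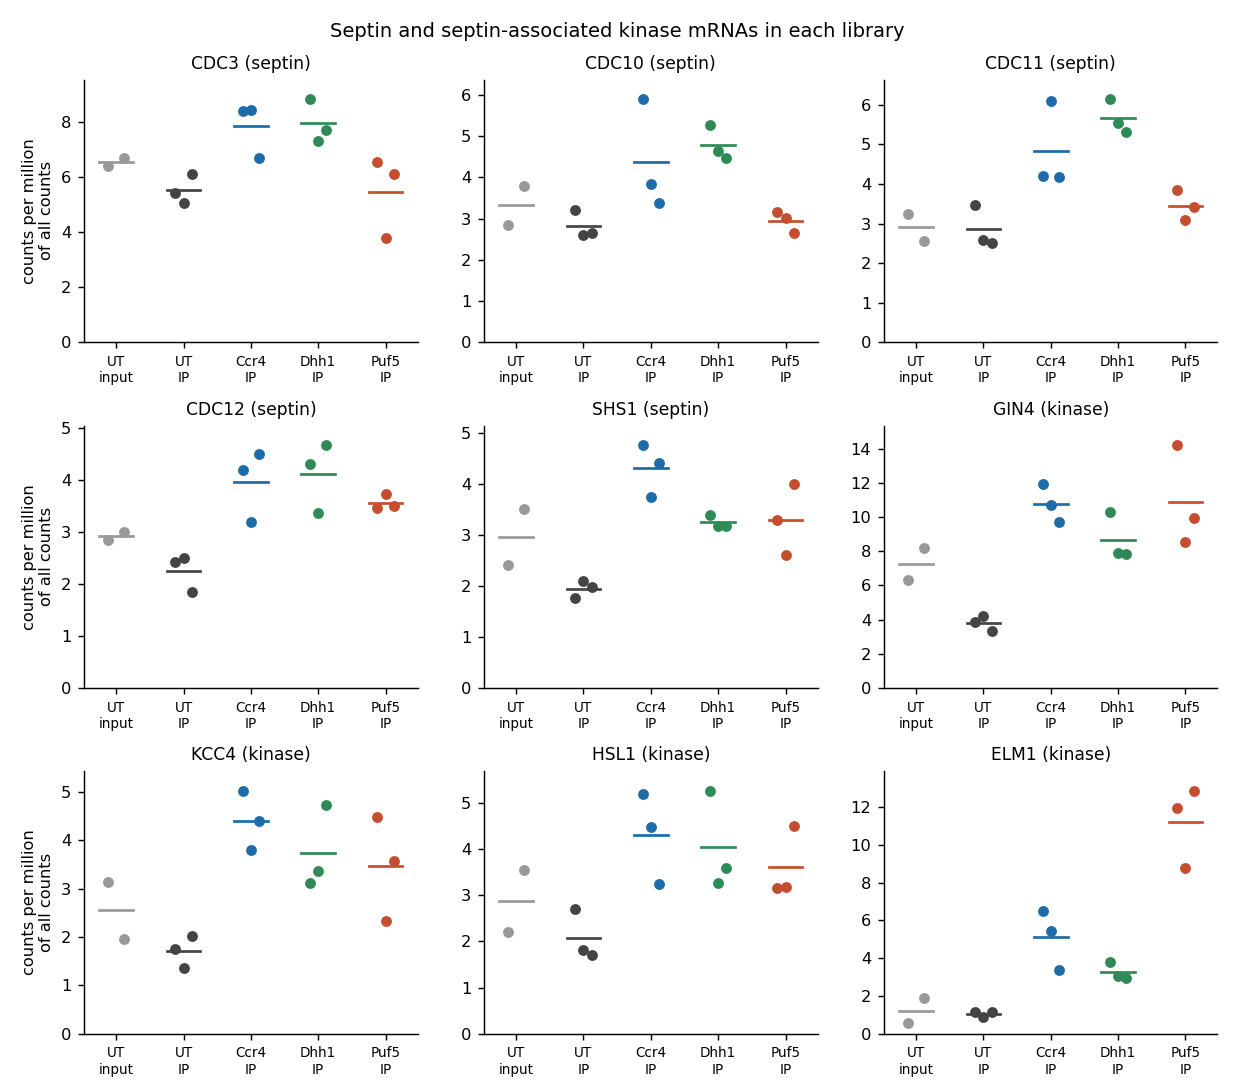
CPM, the reads of an mRNA scaled to the total of its library (vertical axis, each panel with its own scale from 0), in each library of the 5 groups, with a point per library and a bar at the group mean. ELM1 averaged 11.2 CPM in the Puf5 IP and 1.05 in the UT IP, while CDC3 was at 5.47 and 5.53.

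The typical mRNA was itself above the UT IP. The rRNA share was 97.3% to 97.4% in the UT IP libraries and 95.1% to 96.9% in the tagged ones, and its part in the following values was not tested. Over all 4642 mRNAs tested the median log2 enrichment was 1.24 with Ccr4, 0.94 with Dhh1 and 0.61 with Puf5. Scaling factors that set the typical mRNA equal between libraries (TMM) moved these medians to 0.13, 0.04 and 0.03. Relative to the median of all mRNAs, the median septin lay lower on the log2 scale with all 3 factors, with differences of -0.49, -0.18 and -0.34. The median kinase lay above it by 0.18, 0.20 and 0.64. With the UT input as reference in place of the UT IP, the differences for the median septin were -0.36, -0.038 and -0.038. Those for the median kinase were then -0.12, -0.013 and 0.32, so that it lay above the median mRNA with Puf5 alone. With TMM the enriched members were ELM1 with Ccr4, none with Dhh1 (where the highest was ELM1, FDR = 0.041) and ELM1 with Puf5, against 5.86%, 1.16% and 4.67% of all mRNAs.

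**Figure D2:**
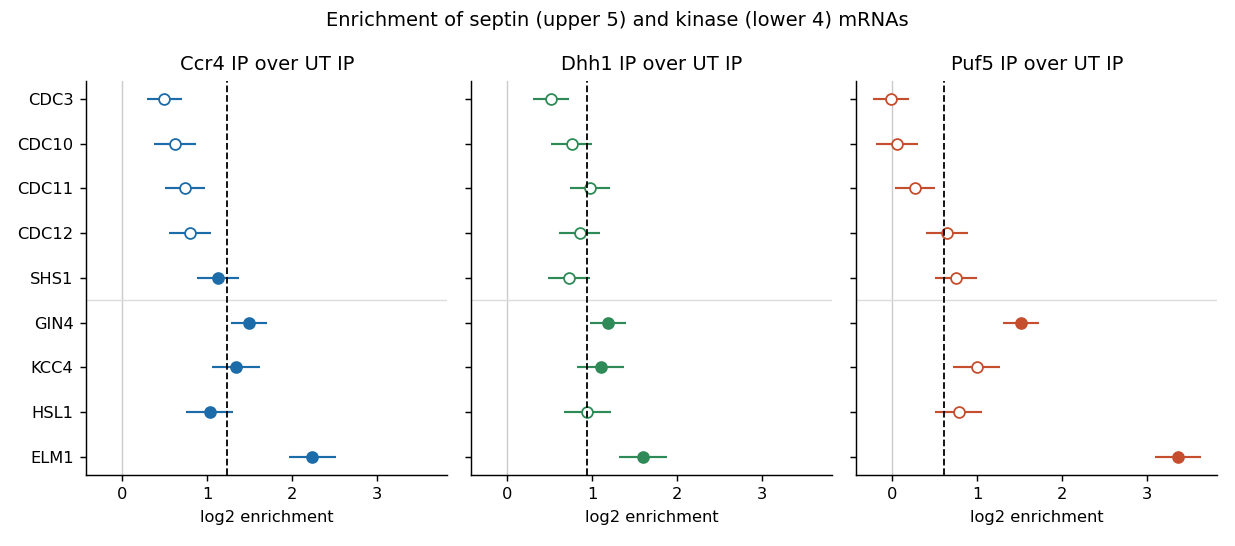
Log2 enrichment over the UT IP (horizontal axis, common to the panels) of the 5 septin and 4 kinase mRNAs, with bars of 1 SE from the fit of 12 libraries. Filled points had an FDR under 1% and a log2 ratio over 1, the dashed line is the median of all mRNAs (1.24, 0.94 and 0.61), and ELM1 is the rightmost point in each panel.

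ELM1 encodes a kinase that activates Gin4 and its relatives, is needed for a normal septin collar, and also acts upstream of the AMPK homolog Snf1. Its reads numbered 27, 19 and 26 in UT IP replicates 1, 2 and 3 and 12 and 40 in the UT input. In the Puf5 IP there were 272, 193 and 302 reads, with Ccr4 149, 118 and 75, and with Dhh1 86, 67 and 61. Every tagged library lay above every untagged one, and the 3 Puf5 libraries lay above all the others.

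Enrichment of ELM1 in the Puf5 IP was 10.3-fold (log2 3.36 ± 0.27 SE, n = 3 against 3, FDR = 1.1e-10 by edgeR's quasi-likelihood test). It ranked 20 of 4642 mRNAs, above 99.6% of them. In the Ccr4 IP the enrichment was 4.72-fold (log2 2.24 ± 0.27, FDR = 1.2e-07), above 92.4% of mRNAs, and in the Dhh1 IP it was 3.03-fold (log2 1.60 ± 0.28, FDR = 4.3e-05), above 89.2%. Leaving out each IP library in turn kept all 3 calls, with log2 values of 3.25 to 3.51 for Puf5, 2.03 to 2.47 for Ccr4 and 1.48 to 1.67 for Dhh1. With TMM the values were 2.79 (FDR = 4.8e-09), 1.11 (FDR = 0.00047) and 0.70 (FDR = 0.041), so that the Dhh1 call was lost.

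Factors were compared with each other in the same fit, since separate comparisons with the UT IP do not test their difference. ELM1 was the only member that differed between 2 factors at an FDR of 1%. It was 3.39-fold higher in the Puf5 IP than in the Dhh1 IP (log2 1.76 ± 0.24, 95% interval 1.27 to 2.26, FDR = 9.4e-06), ranking 28 of 4642 mRNAs. The Ccr4 libraries held less ELM1 than the Puf5 libraries (log2 -1.12 ± 0.23, 95% interval -1.60 to -0.65, FDR = 0.00044). Between the Ccr4 and Dhh1 IPs the difference was 0.64 with an interval of 0.14 to 1.14 (FDR = 0.072), and their libraries overlapped. The order of ELM1 levels was thus Puf5, Ccr4, Dhh1, UT input and UT IP. At an FDR of 1% by edgeR 3 neighbouring pairs were not separated. These were Ccr4 and Dhh1, Dhh1 and the input (log2 1.37, FDR = 0.011), and the input and the UT IP.

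Across all mRNAs, 2.09% were higher with Puf5 than with Dhh1 and 2.80% were lower with Ccr4 than with Puf5 at the same threshold. For the other 8 members no difference between factors passed the FDR of 1%, against 5.62% of mRNAs in either direction for Ccr4 and Dhh1, 25.9% for Ccr4 and Puf5 and 3.75% for Puf5 and Dhh1. For several septins the intervals were on one side of 0 before adjustment. For Ccr4 over Puf5 those of CDC3 (log2 0.081 to 0.95), CDC10 (0.067 to 1.07) and CDC11 (0.0015 to 0.95) lay above 0 (FDR = 0.048, 0.056 and 0.091). The median of all mRNAs for Ccr4 over Puf5 was at 0.56. Those of CDC11 (log2 -1.18 to -0.24), CDC10 (-1.20 to -0.20) and CDC3 (-0.97 to -0.10) for Puf5 over Dhh1 lay below 0 (FDR = 0.042, 0.054 and 0.087). The median of all mRNAs for Puf5 over Dhh1 was itself at -0.34. With TMM the Puf5 over Dhh1 differences of CDC11, CDC10 and CDC3 were -0.38, -0.37 and -0.22 (FDR = 0.30, 0.31 and 0.51). With TMM, GIN4 was also higher with Puf5 than with Dhh1 (log2 0.65, FDR = 0.0088).

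GIN4 encodes a kinase that phosphorylates the septin Shs1 and is needed for assembly of the collar. UT IP replicates held 92, 92 and 76 GIN4 reads and the UT input 129 and 175. There were 324, 187 and 234 reads in the Puf5 IP, 273, 231 and 216 with Ccr4 and 234, 173 and 161 with Dhh1. All tagged libraries were above all UT IP libraries, but those of Dhh1 overlapped the input.

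GIN4 was enriched 2.85-fold with Puf5 (log2 1.51 ± 0.21 SE, FDR = 2.9e-06) and 2.82-fold with Ccr4 (FDR = 1.1e-06), and the log2 difference of Ccr4 from Puf5, -0.017, had a 95% interval of -0.43 to 0.39. Relative to all mRNAs these values were not alike, being above 90.8% of mRNAs for Puf5 and 64.8% for Ccr4. In the Dhh1 IP the log2 value was 1.18 ± 0.21 (FDR = 6.7e-05). Against the UT input GIN4 was not enriched in any IP, with log2 values of 0.57, 0.25 and 0.58 for Ccr4, Dhh1 and Puf5 (FDR = 0.042, 0.40 and 0.11). All 3 UT IP libraries were below both input libraries for GIN4, a log2 difference of -0.93 ± 0.24 that did not pass 1% (FDR = 0.012). With TMM GIN4 passed the FDR with Puf5 alone (0.92, FDR = 0.00034), below 2-fold, against 6.27% of all mRNAs.

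KCC4 is the paralog of GIN4. UT IP libraries held 42, 30 and 46 KCC4 reads, against 115, 82 and 98 with Ccr4, 71, 74 and 97 with Dhh1 and 102, 51 and 84 with Puf5. None of the tagged libraries overlapped the UT IP. Its log2 enrichments were 1.34 ± 0.28, 1.10 ± 0.28 and 0.99 ± 0.28 (FDR = 0.00011, 0.0014 and 0.0058). The Puf5 value was just under the threshold of 1, and it passed without UT IP replicate 3 or without Puf5 IP replicate 2. The Dhh1 call was lost without UT IP replicate 2 or Dhh1 IP replicate 3, where the lowest value was 0.90.

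HSL1, whose kinase ties septin assembly to degradation of the mitotic inhibitor Swe1, had 65, 40 and 39 reads in the UT IP. It had 119, 97 and 72 with Ccr4, 120, 72 and 74 with Dhh1 and 72, 70 and 106 with Puf5. All tagged libraries were above the UT IP. Its enrichments of 1.03 ± 0.28 in the Ccr4 IP (FDR = 0.0014), 0.94 ± 0.28 in the Dhh1 IP (FDR = 0.0040) and 0.78 ± 0.28 in the Puf5 IP (FDR = 0.024) were close to the medians of all mRNAs. The Ccr4 call was lost without UT IP replicate 2, UT IP replicate 3, Ccr4 IP replicate 1 or Ccr4 IP replicate 2 (lowest 0.87).

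The median septin was at 0.74, 0.76 and 0.27 with Ccr4, Dhh1 and Puf5, and the median kinase at 1.42, 1.14 and 1.25, a difference that was not tested. The ranges of the septins and kinases overlapped, as SHS1 (1.13) was above HSL1 (1.03) with Ccr4 and CDC11 (0.98) above HSL1 (0.94) with Dhh1. Cdc3, Cdc10, Cdc11 and Cdc12 make up the core septin rod, and Shs1 takes the place of Cdc11 at the end of a part of the rods. In the Ccr4 IP all 5 septins were below the median of all mRNAs, and SHS1 was the only enriched one, with 42, 46 and 45 reads in the UT IP and 109, 81 and 98 in the Ccr4 IP (log2 1.13 ± 0.25, FDR = 0.00021). CDC11 (0.74) and CDC12 (0.80) passed the FDR of 1% below 2-fold, and CDC10 (0.63) and CDC3 (0.50) did not pass (FDR = 0.021 and 0.032). With Dhh1 the septin values ran from 0.52 for CDC3 to 0.98 for CDC11, of which CDC10, CDC11 and CDC12 passed the FDR and none reached 2-fold.

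In the Puf5 IP no septin passed, and the values ran from -0.015 for CDC3 to 0.75 for SHS1 (FDR = 0.96 and 0.018). CDC3, with 130, 111 and 139 reads in the UT IP, had 149, 83 and 143 in the Puf5 IP, and the groups overlapped. CDC10 likewise had 77, 57 and 60 reads in the UT IP and 72, 66 and 62 in the Puf5 IP, a log2 of 0.057 ± 0.25. These were the members with the lowest Puf5 values, above 8.47% and 11.5% of all mRNAs. In contrast CDC12 had 58, 55 and 42 reads in the UT IP and 79, 82 and 82 in the Puf5 IP, without overlap (0.65 ± 0.25, FDR = 0.035).

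Under TMM the septins turned from above to about or below the UT IP. CDC3 was then lower with Ccr4 than in the UT IP (log2 -0.64, FDR = 0.0042), as were 11.9% of all mRNAs, and the median septin was at -0.38, -0.15 and -0.32 for Ccr4, Dhh1 and Puf5. The direction of the septin values thus changed with the scaling. The median septin was below the median mRNA with library totals and with TMM. Because TMM applies a single factor to all mRNAs of a library, it could hardly change this order and was no second test of it.

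**Figure D3:**
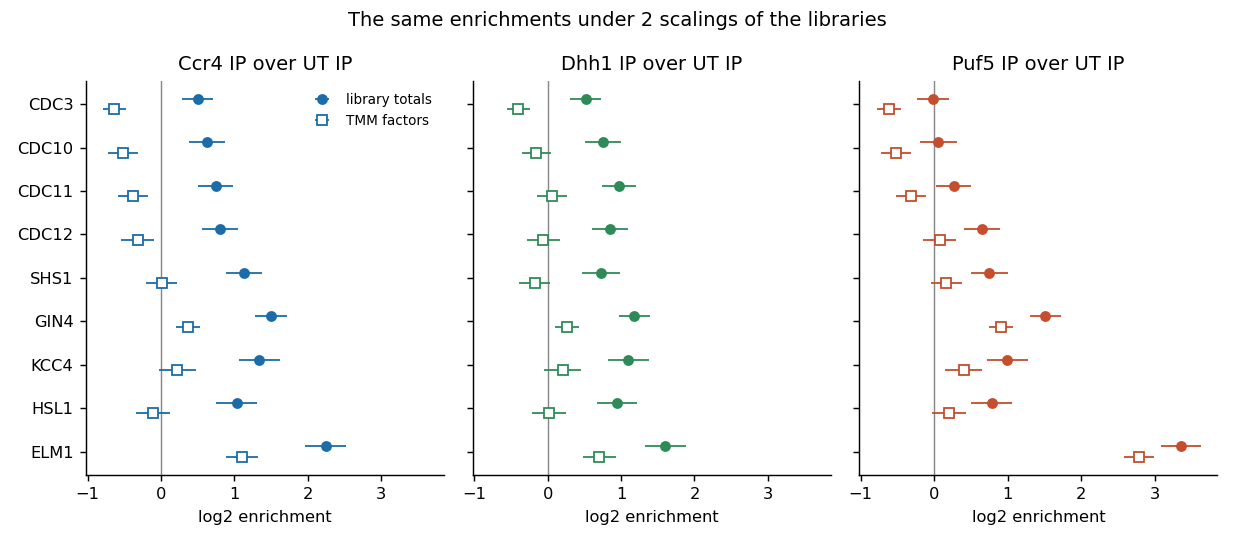
Log2 enrichment over the UT IP (horizontal axis, common to the panels, bars of 1 SE) with library totals (filled circles) and with TMM factors (open squares). TMM moved every member to lower values, CDC3 in the Ccr4 IP from 0.50 to -0.64 and ELM1 in the Puf5 IP from 3.36 to 2.79.

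The mock immunoprecipitation was compared with the input to show what the reference itself does to these mRNAs. None of the 9 differed between the UT IP and the UT input at an FDR of 1% by edgeR, at which 1.60% of 4674 mRNAs were called, all lower in the UT IP. At an unadjusted p of 0.05 GIN4 and SHS1 (log2 -0.93 and -0.60) were lower in the UT IP, and the median of all mRNAs was -0.40. With the input as reference, ELM1 was enriched with Ccr4 (2.01 ± 0.36, FDR = 7.3e-05) and with Puf5 (3.13 ± 0.36, FDR = 9e-08, rank 12 of 4674). It was the only member called, against 24.8% of all mRNAs with Ccr4 and 4.79% with Puf5. With Dhh1 its value was 1.37 ± 0.36 (FDR = 0.011), and no member was called, against 2.91% of all mRNAs. The input rests on 2 libraries that differ for ELM1, with 12 and 40 reads.

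Position along the RNA was read from counts in 3 segments of equal length, 5′, middle and 3′. Within the 3′ segment 8 of 9 members were enriched in the Ccr4 IP (all but CDC10), against 49.0% of 4313 mRNAs. In the Dhh1 IP 5 of 9 were enriched (CDC3, CDC11, SHS1, GIN4 and ELM1) against 30.0%, and in the Puf5 IP 4 of 9 (CDC11, CDC12, GIN4 and ELM1) against 21.5%. In the 5′ segment 1 member was called for each factor, GIN4 with Ccr4 (1.02), HSL1 with Dhh1 (1.67) and ELM1 with Puf5 (2.38), against 31.7%, 13.2% and 3.70% of 4302 mRNAs. In the middle segment GIN4 and ELM1 were called with all 3 factors, against 32.3%, 13.8% and 7.45% of 4361 mRNAs, and for ELM1 with Dhh1 (1.45) the call was lost without UT IP replicate 2, Dhh1 IP replicate 1 or Dhh1 IP replicate 3. With TMM factors within the middle segment both passed with Puf5 alone (2.32 for GIN4 and 2.52 for ELM1).

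The 3′ calls depended on single libraries for several members, and the counts of 8, 5 and 4 were found in 2, 3 and 5 of 12 refits. CDC3 with Ccr4 and SHS1 with Dhh1 were each lost in 9 of 12 refits and CDC12 with Puf5 in 7, while ELM1 and CDC11 with Ccr4 and Dhh1, GIN4 and HSL1 with Ccr4, and ELM1 and GIN4 with Puf5 were called in all 12. Without UT IP replicate 1, 4, 3 and 2 members were enriched in the 3′ segment with Ccr4, Dhh1 and Puf5, of which GIN4 and ELM1 were called with every factor. Without Dhh1 IP replicate 1 or 2 the Dhh1 count was also 3, and without Puf5 IP replicate 3 the Puf5 count was 2. With TMM factors within the segment ELM1 alone was enriched, with Ccr4 (1.55) and with Puf5 (3.20).

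**Figure D4:**
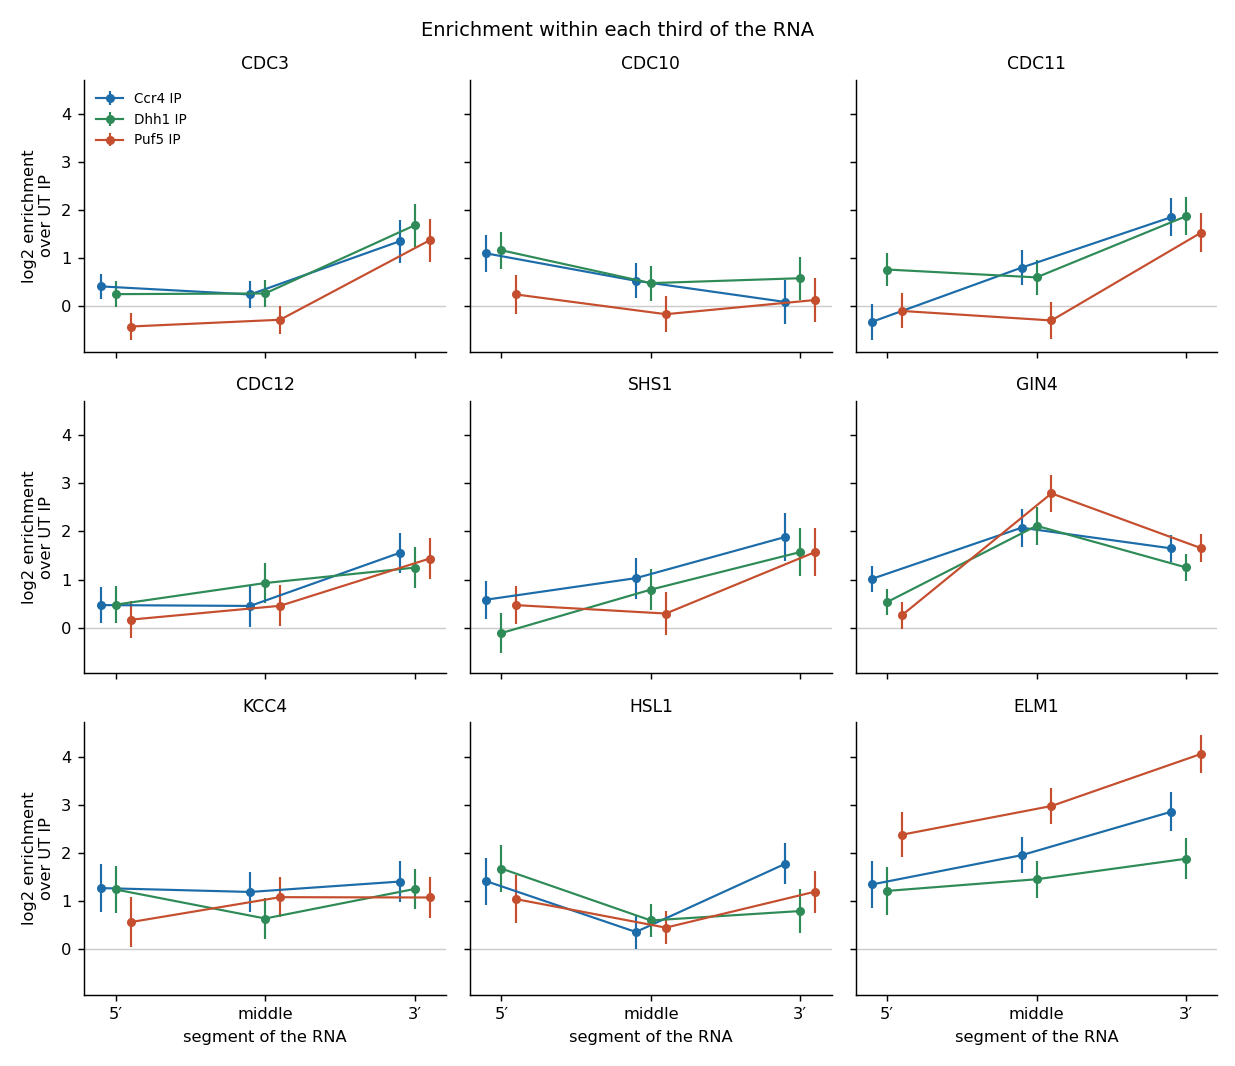
Log2 enrichment over the UT IP (vertical axis, common scale, bars of 1 SE) in the 5′, middle and 3′ segments of each member for the Ccr4, Dhh1 and Puf5 IPs. With each factor ELM1 had its largest value at the 3′ end (4.06 with Puf5), GIN4 in the middle (2.79 with Puf5) and CDC10 in the 5′ segment.

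ELM1 was enriched with Puf5 in every segment, most at the 3′ end. Its 3′ segment had 9, 6 and 5 reads in the UT IP and 133, 100 and 146 in the Puf5 IP, while the 5′ segment had 4, 7 and 9 against 44, 26 and 47. Neither pair of groups overlapped. The log2 enrichments were 2.38 ± 0.47, 2.97 ± 0.36 and 4.06 ± 0.40 from the 5′ to the 3′ segment, and in the 3′ segment ELM1 was above 99.5% of mRNAs. A test of the 3′ against the 5′ enrichment gave a difference of 1.69 ± 0.57 (FDR = 0.052), which did not pass 5%, although it did without UT IP replicate 1. With Ccr4 the 3′ segment had 68, 62 and 29 reads (2.85 ± 0.41) and with Dhh1 32, 29 and 17 (1.88 ± 0.42).

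GIN4 had a different profile, with its largest enrichment in the middle segment. There the UT IP held 7, 20 and 11 reads, the Puf5 IP 170, 49 and 63, the Ccr4 IP 65, 50 and 52, and the Dhh1 IP 64, 53 and 51. All tagged libraries were above the UT IP, and Puf5 IP replicate 1 stood apart from every other library. The log2 enrichment was 2.79 ± 0.38 with Puf5 (FDR = 1.5e-07), 2.08 ± 0.39 with Ccr4 and 2.12 ± 0.39 with Dhh1. Without Puf5 IP replicate 1 the Puf5 value was 2.06 (FDR = 8.8e-05). The UT input had 47 and 56 reads in this segment, and the log2 values against it were 0.020, 0.060 and 0.73 for Ccr4, Dhh1 and Puf5 (FDR = 0.97, 0.94 and 0.33).

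The difference between the ends was tested directly as the interaction of segment and group. With Puf5 3 of 9 members had unequal enrichment, all higher at the 3′ end, against 11.1% of 4158 mRNAs at an FDR of 5%. They were CDC3 (1.70 ± 0.52, FDR = 0.027), CDC11 (1.66, FDR = 0.038) and GIN4 (1.39 ± 0.39, FDR = 0.017), and the median of all mRNAs was 0.61. With Ccr4 it was CDC11 alone (2.16, FDR = 0.016) against 5.34%, and with Dhh1 none against 1.83%, although CDC3, CDC11 and SHS1 had an unadjusted p below 0.05 by edgeR. The CDC11 result with Ccr4 was lost without UT IP replicate 3 or Ccr4 IP replicate 1, and each of UT IP replicates 2 and 3 and Puf5 IP replicates 1 and 3 left 1 member when taken out of the Puf5 test. CDC11 with Puf5 was lost in 6 of 12 such refits.

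CDC11, an end subunit of the septin rod, had 10, 10 and 10 reads in its 3′ segment in the UT IP, against 37, 46 and 30 with Ccr4, 54, 26 and 33 with Dhh1 and 28, 31 and 33 with Puf5. In the 5′ segment it had 27, 22 and 33 reads in the UT IP and 18, 24 and 21 in the Ccr4 IP. Of the 3 segments, only the 3′ one separated the Ccr4 from the UT IP libraries. Of the CDC11 reads, 15.7 ± 3.18% (SD, n = 3) were in the 3′ segment in the UT IP and 35.2 ± 3.12% in the Ccr4 IP.

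CDC3 resembled it, with 15, 17 and 9 reads in the 3′ segment in the UT IP and 55, 19 and 37 in the Puf5 IP, without overlap. Its 5′ segment went the other way, with 47, 46 and 76 reads in the UT IP and 41, 39 and 45 in the Puf5 IP (log2 -0.42 ± 0.27, FDR = 0.37). CDC10, the central subunit of the rod, showed no such pattern, with 3′ values of 0.09, 0.58 and 0.13 and 5′ values of 1.10, 1.17 and 0.25 for Ccr4, Dhh1 and Puf5. HSL1 with Dhh1 had its largest value in the 5′ segment (1.67 ± 0.49, FDR = 0.0060), where the UT IP had 18, 5 and 4 reads and the Dhh1 IP 36, 31 and 21.

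The share of septin reads in the 3′ segment was lowest in the UT IP. Over the 5 septins together, 17.9 ± 5.42% of reads (SD, n = 3) lay in the 3′ segment in the UT IP and 30.2 ± 5.52% (n = 2) in the UT input. With Ccr4, Dhh1 and Puf5 the shares were 28.3 ± 3.70%, 29.1 ± 1.38% and 34.6 ± 1.82%. Each UT IP library was below every other library. The same separation held for all mRNAs, where the UT IP libraries ran from 29% to 30.7% and the lowest other library was at 33.8%. The distance was smaller there, with means of 29.8 ± 0.85% in the UT IP and 34.5 ± 0.99% in the input. The kinases were at 33.1 ± 7.05% in the UT IP and 36.2 ± 1.41% in the input, and overlapped. Between the UT IP and the input, the 3′ minus 5′ differences were -1.15 for CDC3, -1.46 for CDC11, -1.56 for CDC12 and -1.56 for SHS1, with FDRs of 0.27 to 0.35 and no call among the members (0.824% of 4124 mRNAs were called), while CDC10 was at 0.77. Against the input no member had unequal ends with any factor at an FDR of 5% by edgeR, nor at an unadjusted p of 0.05, and 0.315%, 0.145% and 3.06% of mRNAs did with Ccr4, Dhh1 and Puf5. In exact two-sided permutation tests of each member's 3′ share against the UT IP, 27 in all, no p was below 0.1, the smallest that 3 against 3 libraries allow (adjusted p = 0.27).

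**Figure D5:**
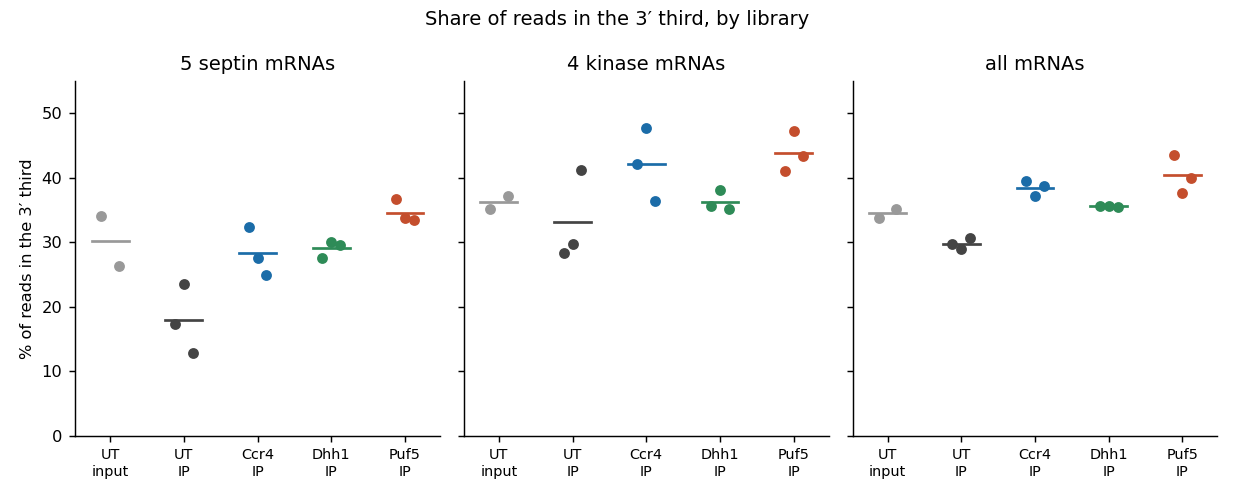
Percent of reads in the 3′ segment (vertical axis from 0) in each library, summed over the 5 septins, the 4 kinases and all mRNAs, with a bar at each group mean. The UT IP mean was 17.9% for the septins, against 30.2% in the input, and 29.8% for all mRNAs, against 34.5%.

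Other genes of the septin system and the bud neck were described from a list of 27, of which 24 were in the tables and tested, while SPR3, SPR28 and BNR1 were not analysed here. In the Ccr4 IP 19 of 24 were enriched against 59.0% of all mRNAs, with a median log2 of 1.33 against 1.24. The highest were MIH1 (2.38), the phosphatase that opposes Swe1, GIC2 (1.96), an effector of Cdc42, CYK3 (1.88), a cytokinesis protein, and MYO1 (1.83), the myosin of the contractile ring. In the Dhh1 IP 14 of 24 were enriched against 38.8%, with a median of 1.09 against 0.94, led by GIC1 (1.75), GIC2 (1.73), MIH1 (1.62) and MYO1 (1.44).

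In the Puf5 IP 4 of these 24 were enriched against 18.2% of all mRNAs, with a median of 0.70 against 0.61. They were GIC1 (2.85 ± 0.41, FDR = 2.7e-06), the paralog of GIC2, INN1 (2.79 ± 0.36, FDR = 7.5e-07), which is needed for septum formation, SWE1 (1.40 ± 0.27, FDR = 0.00019), the kinase that restrains mitosis, and GIC2 (1.32 ± 0.30, FDR = 0.00097). None of the 24 was lower than the UT IP at an FDR of 1% in any tagged IP by edgeR with library totals. The shares of all mRNAs that were lower were 0.280%, 0.0431% and 0.129% with Ccr4, Dhh1 and Puf5. Under TMM 1 was lower with Ccr4, as were 11.9% of all mRNAs. With TMM the enriched genes of the list numbered 1 with Ccr4, none with Dhh1 and 2 with Puf5, against 5.86%, 1.16% and 4.67% of all mRNAs. ELM1, at 3.36, was above all 24 with Puf5. For Puf5 over Dhh1, however, the highest of the 24 was 1.82, against 1.76 for ELM1. At an FDR of 1% by edgeR, 1 was higher and 1 lower, against 3.75% of all mRNAs in either direction. For Ccr4 over Puf5 the lowest was -1.45, against -1.12 for ELM1, with 14 higher and 2 lower, against 25.9%. None differed between Ccr4 and Dhh1, against 5.62%. In the UT IP 1 was lower than in the input, against 1.60%.

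Over the 5 group means, centred for each gene, the mRNA whose pattern lay nearest to ELM1 was IES3, at a Euclidean distance of 0.293 on the log2 scale. The nearest member was GIN4, at 1.91 and rank 525 of 4641. For the others the nearest mRNA was BSC6 for CDC3, YPK1 for CDC10, RPN10 for CDC11, ORM1 for CDC12, SEC11 for SHS1, CHS5 for GIN4, SLY41 for KCC4 and GLO3 for HSL1, at distances from 0.0426 to 0.1. Among the members themselves CDC12 and HSL1 were the closest pair (0.17), a septin and a kinase. Many other mRNAs lay closer to each, as HSL1 ranked 31 of 4641 for CDC12 and CDC12 ranked 33 for HSL1. On the chromosome ELM1 lies between CSE4, on the same strand, and ANR2, on the other strand. Log2 enrichments with Ccr4, Dhh1 and Puf5 were 1.89, 1.59 and 0.73 for CSE4 and 0.56, 0.44 and 0.22 for ANR2. Both Puf5 values were below the 3.36 of ELM1, and a part of neighbouring reads in the ELM1 counts was not tested.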

How the data were processed

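RIP-seq libraries of BY4741 cells were analysed from the deposited counts, whole-number reads per RNA and per segment (each RNA split by length into 3), raw and not normalized. The authors trimmed SOLiD reads, mapped them to an earlier yeast genome build (sg7) with SHRiMP and counted reads between published transcript ends. Whether these counts used strand, and how reads shared by paralogs such as GIN4 and KCC4 were treated, is not given in the sources used here. The submitters' processing notes name edgeR. The authors' own log2 enrichment values were not used. Their table gave RNA types, and symbols came from RefSeq, which matched 4791 of 4792 mRNAs.

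Counts were fitted with edgeR 4.0.16 (R 4.3.3), quasi-likelihood test, all 12 IP libraries, library size as the total including rRNA, prior count 1, Benjamini-Hochberg adjustment over all RNAs tested. SE is the coefficient over the square root of F. Segment tests kept mRNAs averaging 5 counts or more there, and the test of the ends was an interaction with library as a block (FDR 5%). Input comparisons fitted all 14 libraries. Counts for Ccr4 against the UT IP were simulated with log2 changes of 2.5, a common dispersion and all other RNAs unchanged. The whole-RNA fit recovered 100% of 200 changed RNAs with 0 false calls among 4902. The ends test recovered 96.4% of 197 with 5 false calls among 4123. Smaller changes near the log2 cutoff of 1, and a shift of most mRNAs, were not simulated.

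The 9 members and the other gene lists were chosen with earlier results of these data known. All members were named. Of the list of other genes, those enriched over the UT IP as whole RNAs with library totals were named, at most the 4 with the largest values. Those that differed between factors or between the UT IP and the input were counted and not named. The nearest mRNA in pattern was named for each member. Alternatives were TMM factors, library totals over mRNAs or without rRNA, DESeq2 1.42.0, other filters, cutoffs and references, the replicate number as a block, a Poisson test on pairs of replicates, and each library left out. No genome of the files' build was used, so sequences and motifs were not analysed here.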

Additional observations from a re-analysis of the deposited data

Results flagged for a closer look

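Among the members, both results for which the factors differed by the test of the difference itself concerned ELM1. It was lower with Ccr4 than with Puf5 (log2 -1.12, FDR = 0.00044) and higher with Puf5 than with Dhh1 (log2 1.76, FDR = 9.4e-06). In each case the 3 libraries of one group lay wholly above the 3 of the other. Leaving out each IP library in turn gave -1.34 to -0.90 and 1.65 to 1.91, and no call was lost. With TMM factors the differences were -1.68 and 2.09.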

How the results depend on the processing

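Calls of enrichment moved mostly with the library size. Of the 5, 3 and 2 members enriched with Ccr4, Dhh1 and Puf5, TMM factors, DESeq2 and the UT input as reference each left 1, 0 and 1, totals over mRNAs 1 and 0 with Ccr4 and Dhh1, and totals without rRNA 1 and 1. Without the cutoff on log2, 7 members were called with Dhh1. In the 3′ segment the 8, 5 and 4 members became 1, 0 and 1 with TMM or the input, and 1, 0 and 2 with totals over mRNAs. Members with unequal ends fell to 0 with Ccr4 and 0 with Puf5 under TMM, the input as reference or an FDR of 1%. Members differing between Ccr4 and Puf5 numbered 2 with DESeq2 or an FDR of 5%, those between Puf5 and Dhh1 2 with TMM, DESeq2 or an FDR of 5%, and those between the UT IP and the input 1 at an FDR of 5%.

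Among values that passed the FDR of 1% before or after the change, these turned direction. With TMM the Ccr4 values were -0.32 for CDC12, -0.38 for CDC11, -0.11 for HSL1 and -0.64 for CDC3, the Dhh1 values -0.15 for CDC10 and -0.0594 for CDC12, and the 3′ value of CDC3 with Ccr4 -0.0093. With DESeq2 the Ccr4 values were -0.0374 for SHS1, -0.37 for CDC12, -0.43 for CDC11, -0.16 for HSL1 and -0.69 for CDC3, and the Dhh1 values -0.17 for CDC10 and -0.0781 for CDC12. CDC11 with Ccr4 was at -0.0023 with totals over mRNAs and -0.015 without rRNA. Values that passed in neither setting also changed sign. Over the UT IP these were, with TMM, CDC10 with Ccr4 (-0.52), SHS1 and CDC3 with Dhh1 (-0.18 and -0.40) and CDC10 and CDC11 with Puf5 (-0.52 and -0.32), and members also did so between factors and between the UT IP and the input, such as ELM1 (-0.23, and 0.19 with TMM). Under TMM and DESeq2 the typical mRNA is set near 0 by construction. Library totals over mRNAs or without rRNA do not set it so.

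Leaving out 1 library at a time gave 4 to 5, 2 to 5 and 2 to 3 enriched members with Ccr4, Dhh1 and Puf5, 4 to 8, 3 to 5 and 2 to 5 in the 3′ segment (the same count in 2, 3 and 5 of 12 refits), and 0 to 1, 0 to 0 and 1 to 3 with unequal ends. It gave 0 to 0, 1 to 1 and 1 to 1 members differing between Ccr4 and Dhh1, Ccr4 and Puf5, and Puf5 and Dhh1, and 0 to 1 between the UT IP and the input (GIN4, without Puf5 IP replicate 1 or 2). The 5 enriched with Dhh1 were found without UT IP replicate 1, which added CDC11 and HSL1. Settings for the middle segment of GIN4 and ELM1 were chosen after seeing the data.

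Replicate numbers were shared by the groups in the labels, but same-numbered libraries did not deviate together (r from -0.0434 to 0.0537 over 18 pairs). With the replicate number as a block 5, 3 and 2 members were enriched, 8, 4 and 4 in the 3′ segment, and 0, 1 and 1 differed between factors, and none between the UT IP and the input. With 12 to 324 reads per library for a member, an SE of about 0.2 to 0.4 on the log2 scale set the precision, and segments with under 10 reads in the UT IP were the least precise.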
